A study of Homo sapiens with 18 samples.

Results

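A set of 37 genes whose proteins drive chromosome segregation and cell division was followed after repression of DNAJC17 in ES8, a human Ewing sarcoma line, and in Rh30, a human line of alveolar rhabdomyosarcoma. The genes were listed by symbol and sorted by role into 7 mitotic kinases, 7 genes of cyclin B, checkpoint and anaphase control, 8 kinetochore genes, 3 partners in the chromosomal passenger complex, 6 spindle and mitotic chromosome genes, and 6 central spindle and cytokinesis genes. All 37 were found among the 57500 genes of the count tables. DNAJC17 is a J-domain co-chaperone of HSP70 that also carries an RNA recognition motif (RRM). All cells expressed dCas9-KRAB, a catalytically dead Cas9 fused to a repressor domain, and were held in puromycin for 72 hours. Parental cells carried either sgCTL, a guide RNA without a target, or sgDNAJC17, a guide RNA at the start of DNAJC17, which gives the knockdown. A further population, called ΔRRM, carried sgDNAJC17 and stably expressed FLAG-tagged DNAJC17 without its RRM, which the guide does not repress. There were 3 libraries (A, B and C) in each of the 6 groups, from cells plated in triplicate. ΔRRM cells with sgCTL were not analysed here, so the transgene and the separate stable population cannot be told apart.

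Mitosis begins when CDK1 bound to cyclin B, with the Polo and Aurora kinases, drives chromosome condensation and spindle assembly. Kinetochores join the chromosomes to spindle microtubules, and the spindle checkpoint holds back the anaphase promoting complex until all are attached, after which separase cleaves cohesin and the central spindle guides cytokinesis. Transcripts of many of these genes are made mainly in G2 and M phase, and their promoters are known for a hexamer called the CHR (cell cycle genes homology region), bound by the DREAM and MuvB complexes, and for CCAAT boxes bound by NF-Y. In bulk RNA, fewer cells in mitosis and less RNA per cell cannot be told apart.

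Windows from 250 bases before to 50 bases after the annotated start of transcription (RefSeq, GRCh38.p14) were searched for these motifs on both strands. Windows were found for 30 of the 37 genes. The CHR hexamer TTTGAA was held by 22 of these 30 genes (73.3%), against 18.2% of the 27305 genes with a window, the variant TTTAAA by 13 (43.3%, against 14.5%) and CCAAT by 24 (80.0%, against 39.7%). On the gene's own strand, TTTGAA lay within the 60 bases upstream of the start in 11 of the 30 genes (36.7%), against 1.79% of all genes with a window. Neighbouring matches of different motifs can share bases, and a match is a description of the sequence only. The 30-base stretches around this hexamer are shown for the 7 of these 11 genes that passed the test in a knockdown comparison, since they set side by side genes that moved in different directions. The hexamer is in capitals, and each stretch is on the gene's own strand.
PLK1 (chr16:23678848-23678877, plus strand): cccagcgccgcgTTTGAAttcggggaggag
BUB1B (chr15:40161034-40161063, plus strand): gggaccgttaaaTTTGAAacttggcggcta
ESPL1 (chr12:53268256-53268285, plus strand): cagccgcggataTTTGAAaggagggtctgg
INCENP (chr11:62123981-62124010, plus strand): ggattggctgagccttcagtTTTGAAaatc
PRC1 (chr15:90994538-90994567, minus strand): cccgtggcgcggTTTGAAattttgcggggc
KIF23 (chr15:69414282-69414311, plus strand): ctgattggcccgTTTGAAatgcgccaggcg
ANLN (chr7:36389830-36389859, plus strand): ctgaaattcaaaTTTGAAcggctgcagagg

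The hexamer starts 29 bases before the start of transcription in PLK1, 23 in BUB1B, 31 in ESPL1, 10 in INCENP, 20 in PRC1 and ANLN, and 55 in KIF23. CCNB2, which did not pass the test in either knockdown, held the same hexamer 29 bases upstream (chr15:59105105-59105134, plus strand, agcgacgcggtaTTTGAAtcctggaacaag), with CCAAT boxes at 54, 87, 120 and 244 bases upstream. Genes with the hexamer were thus found among those that rose, those that fell and those that were not called. In the ES8 knockdown, 6 of 10 genes that fell, the 1 gene with a window that rose and 15 of 19 uncalled genes with a window held it anywhere in the window.

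**Figure D1:**
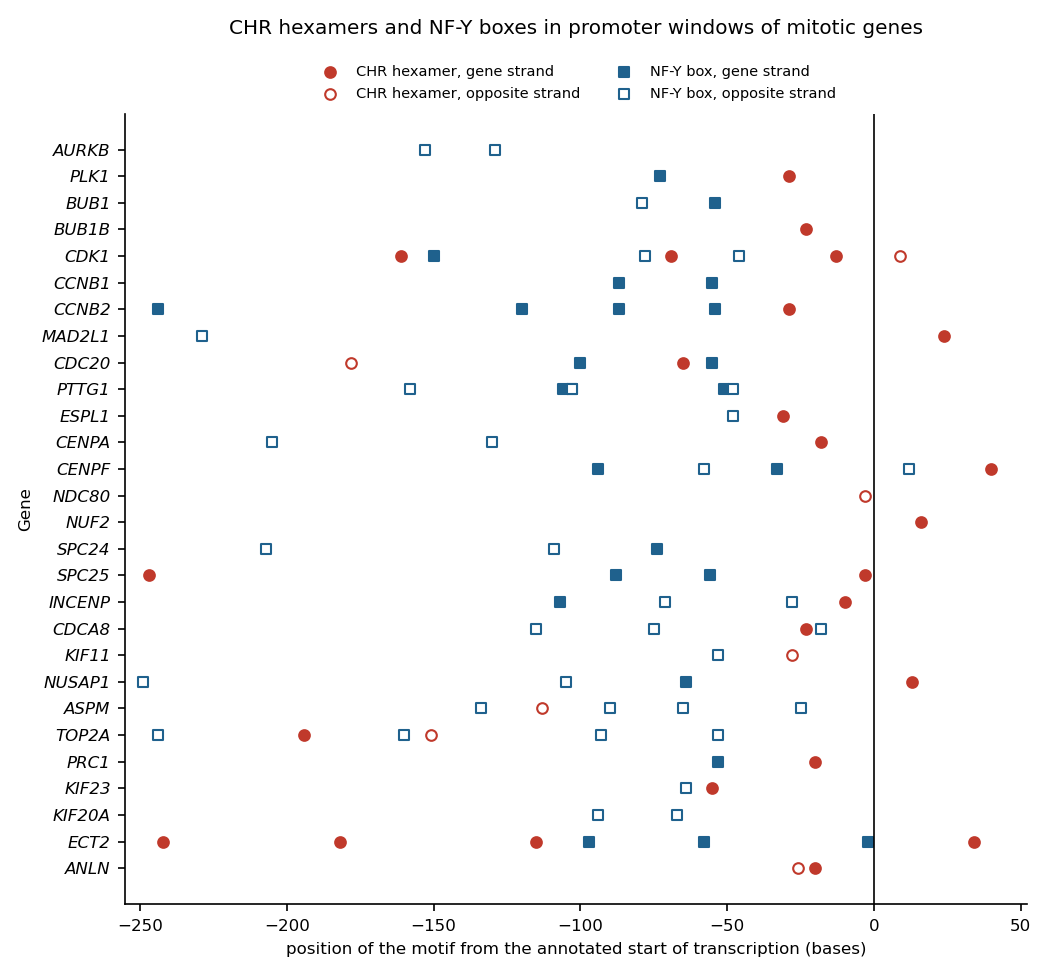
Position of each CHR hexamer (circles) and NF-Y box (squares) relative to the annotated start of transcription, in bases, for the genes with at least 1 of them among the 30 with a promoter window. Filled symbols are on the gene's own strand and open symbols on the other, and CHR hexamers of PLK1, BUB1B, CCNB2, CDCA8, CENPA, PRC1 and ANLN gather between 18 and 29 bases before the start.

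Library totals ran from 35342393 to 48245989 counts, and the members' counts from 291 (CENPE) to 36649 (CDC20) in a library. DNAJC17 held 559 to 625 counts with sgCTL and 59 to 77 with sgDNAJC17 in ES8, and 461 to 522 and 81 to 113 in Rh30, while the ΔRRM libraries held 9849 to 14449 counts, to which the transgene contributes. Summed levels of 6 Ewing sarcoma markers were 381 to 437 CPM (counts scaled to a common library size after TMM normalization) in ES8 and at most 0.274 CPM in Rh30, where CCK was at 0 in every library. Summed levels of 6 muscle lineage markers were 2165 to 3439 CPM in Rh30 and 63.0 to 94.7 CPM in ES8, where MYOG was at 0 in the sgCTL and knockdown libraries. In Rh30, 17 epithelial markers summed to 267 to 288 CPM with sgCTL, where CLDN7 and RAB25 were at 0. They summed to 289 to 313 CPM with sgDNAJC17 and to 338 to 369 CPM in ΔRRM cells of Rh30. In ES8 they summed to 308 to 314 CPM with sgCTL, 291 to 352 CPM with sgDNAJC17 and 291 to 305 CPM in ΔRRM cells. In the Rh30 knockdown, 6 of 11 tested epithelial markers rose and 1 fell, beside 16.1% and 16.2% of all genes. TFF1 (log2 fold change 4.77) and CDH1 (4.60) rose most, and 3 of the 6 muscle markers fell there. The part of these marker lists in the results below was not tested. Library A of the ES8 knockdown had a trend with GC content. Its deviations from the group mean correlated with GC content across genes at 0.462, and their median over the 37 genes was -0.15, against 0.08 and 0.07 in libraries B and C.

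In unperturbed cells, that is with sgCTL, the most abundant transcripts per kb of exon were CDC20, the activator of the anaphase promoting complex, at 113 CPM per kb in ES8 and 401 in Rh30, and the least abundant was CENPE, a kinetochore motor, at 2.35 and 1.68. KNL1 and ASPM lay next above CENPE in both lines. The median over the 37 genes was 23.8 CPM per kb in ES8 and 28.1 in Rh30. Of the 37 genes, 13 were higher in ES8 (45.5% of all genes tested were) and 22 lower (42%), at an adjusted p under 0.05. CDC20 stood at 232, 231 and 226 CPM in ES8 libraries A, B and C and at 781, 834 and 837 CPM in Rh30, a log2 difference of -1.80 (standard error 0.05, adjusted p = 1.2e-32). The spindle assembly factor TPX2 (-1.52), the cytokinetic ring protein ANLN (-1.38), AURKA (-1.10) and CCNB1 (-1.01) were also more than 2-fold lower in ES8. ESPL1, which encodes separase, was the 1 gene more than 2-fold higher in ES8, at 138, 145 and 141 CPM against 55.6, 47.9 and 50.3 CPM (log2 difference 1.49). The groups did not overlap for any of these. Scaling by library totals alone moved the median over all genes from 0.07 to 0.28 and turned the sign of UBE2C.

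Knockdown of DNAJC17 moved these genes by less than 2-fold in either line. In ES8, 3 rose (13.6% of all genes tested did) and 10 fell (13.8%), with a median log2 fold change of -0.05 against -0.02 over all genes. In Rh30, 4 rose (16.1% of all genes) and 8 fell (16.2%), with a median of -0.08 against 0.00. None of the 37 was called at 2-fold or more, against 1.95% of all genes in ES8 and 1.55% in Rh30. UBE2C and BIRC5 rose in both lines, 2 of the 3 genes that rose in ES8 and 2 of the 4 in Rh30. ESPL1, KIF2C and PRC1 fell in both, 3 of the 10 genes that fell in ES8 and 3 of the 8 in Rh30. No gene was called in opposite directions, except that INCENP was called higher in ES8 (0.13) and lower in Rh30 (-0.18) after correction for GC content and length, with and without the replicate block, and was also called higher in ES8 without knockdown library A. Leaving out libraries moved these counts. In ES8, 13 genes rose and 13 fell without library A of the knockdown (22.4% and 22.9% of all genes then), and 4 and 5 fell without sgCTL libraries A and C (6.91% and 6.69% of all genes). In Rh30, 7 rose without knockdown library A (20.3% of all genes) and 2 without knockdown library B or C or sgCTL library A or B (9.45% to 11.9%), and 5 fell without sgCTL library A or knockdown library B (10.4% and 9.91%). For each of the counts given here, the count over all genes moved in the same direction. Without Rh30 knockdown library C, however, 12 fell, more than the 8 with all libraries, while the share over all genes went from 16.2% to 11.8%. Same-lettered libraries deviated together in Rh30 over genes of at least 50 CPM, though not over all genes, and with the replicate letter as a block 6 genes rose and 15 fell there (of all genes, 23.5% in each direction). The block added CDK1 and CCNB1 to those that rose and BUB1B, CENPE, SPC24, KIF11, TPX2, TOP2A and RACGAP1 to those that fell. After correction for GC content and length, 2 rose and 20 fell in Rh30 (16.7% and 14.6% of all genes). In ES8, 5 rose and 15 fell after it (21.2% and 21.1%). UBE2C and BIRC5 up and BUB1B, ESPL1, SPC24 and TOP2A down in ES8, and MAD2L1 and BIRC5 up and ESPL1, INCENP, ASPM, PRC1 and KIF20A down in Rh30, kept their calls in every fit that left out 1 library.

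**Figure D2:**
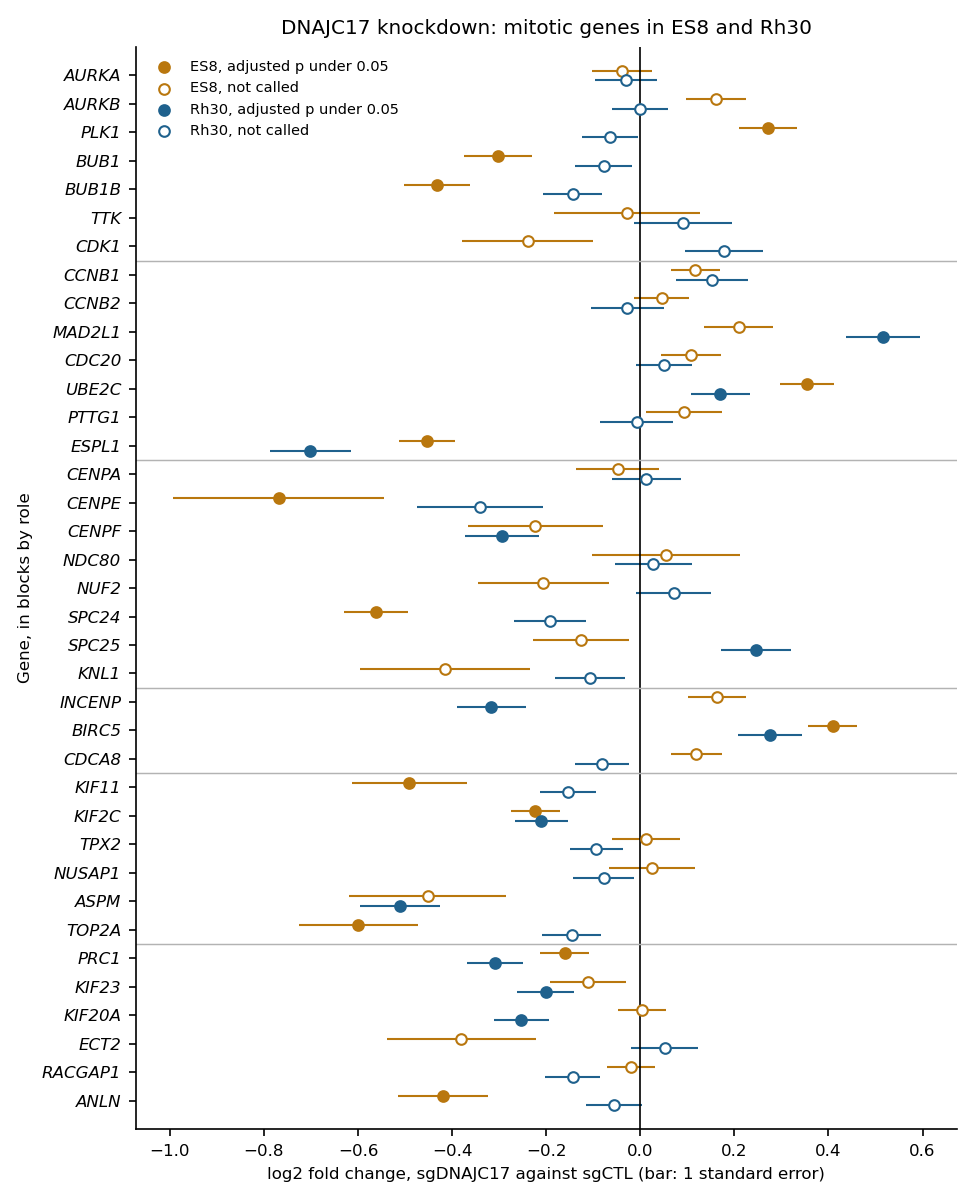
log2 fold change (x axis) of each of the 37 genes (y axis, in blocks by role) with sgDNAJC17 against sgCTL in ES8 and Rh30, with bars of 1 standard error. All values lie between -0.77 (CENPE, ES8) and 0.52 (MAD2L1, Rh30), and filled points passed an adjusted p of 0.05.

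Among the mitotic kinases, 1 rose and 2 fell in ES8 and none was called in Rh30, where the replicate block called CDK1 higher (0.17) and BUB1B lower (-0.14). BUB1B was called lower in Rh30 also with library totals, after correction for GC content and length, and without knockdown library C. PLK1, the Polo kinase of centrosome maturation and mitotic entry, stood at 255, 248 and 246 CPM in ES8 sgCTL libraries and at 332, 291 and 296 CPM with sgDNAJC17 (log2 fold change 0.27, standard error 0.06, adjusted p = 0.010). In Rh30 it stood at 223, 223 and 218 CPM and at 215, 216 and 197 CPM (-0.06, adjusted p = 0.44). The groups were clearly apart in ES8 and barely so in Rh30, and the difference between the lines was -0.31 (Rh30 minus ES8, standard error 0.10, adjusted p = 0.048). The PLK1 call in ES8 was lost without sgCTL library B or C, where the highest adjusted p was 0.062. BUB1B, the pseudokinase of the mitotic checkpoint complex, fell in ES8 from 117, 116 and 120 CPM to 79.7, 94.0 and 92.6 CPM (-0.43, standard error 0.07, adjusted p = 0.0022), and stood at 68.5, 68.3 and 66.5 CPM against 60.01, 58.4 and 63.6 CPM in Rh30 (-0.14, adjusted p = 0.093). Its checkpoint partner BUB1 fell in ES8 (-0.30, adjusted p = 0.013), from 82.2, 79.1 and 82.4 CPM to 59.98, 70.6 and 70.2 CPM, a call lost without sgCTL library A or C.

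The Aurora kinases were not called in either line with all libraries, though AURKA was called lower in Rh30 after correction for GC content and length (-0.13) and AURKB higher in ES8 without knockdown library A (0.10). AURKA, which acts at spindle poles, stood at 70.8, 68.3 and 69.7 CPM with sgCTL and 64.4, 72.8 and 69.3 CPM with sgDNAJC17 in ES8, and at 148, 152 and 155 CPM and 136, 148 and 156 CPM in Rh30, so that the groups overlapped in both lines. AURKB, the catalytic subunit of the chromosomal passenger complex, stood at 111, 117 and 112 CPM and at 138, 126 and 122 CPM in ES8 (0.16, standard error 0.06, adjusted p = 0.090), and at 200, 217 and 209 CPM and 203, 211 and 204 CPM in Rh30 (0.00, standard error 0.06). In ES8 the AURKB groups were apart without passing the test. The checkpoint kinase TTK and CDK1 did not pass the test in ES8, and library A of the knockdown was the lowest for both. CDK1 stood there at 60.8, 93.0 and 94.6 CPM against 100.03, 91.1 and 97.5 CPM with sgCTL. It was called lower with no filter and after correction for GC content and length, with and without the replicate block. For TTK in ES8 the log2 fold change was -0.03 with all libraries and 0.16 (adjusted p = 0.018) without library A.

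Of the genes of cyclin B, checkpoint and anaphase control, UBE2C rose and ESPL1 fell in both lines, and MAD2L1 rose in Rh30. UBE2C, the ubiquitin-conjugating enzyme of the anaphase promoting complex, went from 145, 138 and 136 CPM to 191, 176 and 177 CPM in ES8 (0.35, standard error 0.06, adjusted p = 0.0022). In Rh30 it went from 166, 169 and 154 CPM to 176, 186 and 182 CPM (0.17, adjusted p = 0.049), a call lost in 5 of 6 fits that left out 1 library and when libraries were scaled by totals, not filtered on low counts or corrected for GC content and length. ESPL1 fell from 138, 145 and 141 CPM to 111, 103 and 101 CPM in ES8 (-0.45, standard error 0.06, adjusted p = 8.2e-04) and from 55.6, 47.9 and 50.3 CPM to 35.8, 28.9 and 28.8 CPM in Rh30 (-0.70, standard error 0.09, adjusted p = 9.3e-05). For ESPL1 the knockdown and sgCTL libraries did not overlap in either line. MAD2L1, which encodes the checkpoint protein MAD2, rose in Rh30 from 126, 142 and 142 CPM to 173, 197 and 209 CPM (0.52, standard error 0.08, adjusted p = 3.9e-04). In ES8, MAD2L1 stood at 103, 97.3 and 103 CPM and at 106, 126 and 125 CPM (0.21, adjusted p = 0.056). It was called higher in ES8 too with DESeq2 or its size factors, with no filter, after correction for GC content and length, and without knockdown library A. The MAD2L1 effect did not pass the test of a difference between the lines (0.33, adjusted p = 0.067), but did with DESeq2, with the replicate block and without Rh30 knockdown library A. CCNB1, CCNB2, CDC20 and PTTG1 (securin) did not pass the test in either line, with log2 fold changes from -0.03 to 0.15. CCNB1 was called higher in Rh30 with the replicate block and without knockdown library A. CCNB2 was called lower there after correction for GC content and length, and PTTG1 after that correction combined with the block. In ES8, CCNB1 and PTTG1 were called higher without knockdown library A.

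Of the 8 kinetochore genes, 2 fell in ES8 and 0 rose, and 1 fell and 1 rose in Rh30. The outer plate subunit SPC24 fell in ES8, from 40.6, 41.7 and 40.0 CPM to 28.2, 29.0 and 27.0 CPM (-0.56, standard error 0.07, adjusted p = 6.0e-04), the lowest adjusted p of the 37 genes in that line. In Rh30 SPC24 stood at 33.3, 35.0 and 33.9 CPM and at 27.0, 31.8 and 29.7 CPM (-0.19, adjusted p = 0.066), where it was called lower with the replicate block, with library totals and after correction for GC content and length. The lines differed by 0.39 (adjusted p = 0.027). SPC25, its direct partner in the NDC80 complex, went the other way in Rh30, from 29.6, 29.7 and 31.3 CPM to 32.9, 35.6 and 37.9 CPM (0.25, adjusted p = 0.020). The 2 other subunits, NDC80 and NUF2, did not pass the test in either line. NDC80 was called higher in ES8 without knockdown library A. After correction for GC content and length combined with the replicate block, NDC80 was called lower in Rh30 and NUF2 lower in ES8. The SPC25 call was lost in 4 of 6 fits that left out 1 library and with library totals or the correction for GC content and length. CENPE, a kinesin of chromosome alignment, had the largest fold change of the 37 genes, from 19.4, 22.9 and 24.3 CPM to 7.69, 16.1 and 15.8 CPM in ES8 (-0.77, standard error 0.22, adjusted p = 0.029). Library A of the knockdown was the lowest of these, and the CENPE call was lost with DESeq2 and without any 1 of the 3 sgCTL libraries. In Rh30, CENPE had a log2 fold change of -0.34 that did not pass the test (adjusted p = 0.065). It was called lower in Rh30 with DESeq2, library totals, no filter, the replicate block and the correction for GC content and length. The same held without Rh30 sgCTL library C or knockdown library A or C. CENPF, a large outer kinetochore protein, fell in Rh30 from 125, 109 and 116 CPM to 101, 82.7 and 99.1 CPM (-0.29, adjusted p = 0.012), a call lost without sgCTL library A or knockdown library B. In ES8 the CENPF groups overlapped (-0.22, adjusted p = 0.28). KNL1 (-0.41 in ES8, adjusted p = 0.12) and the centromeric histone CENPA (-0.05 and 0.01) were not called.

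The partners of AURKB in the chromosomal passenger complex moved apart from each other in Rh30. BIRC5, which encodes survivin, rose in both lines, from 246, 229 and 241 CPM to 311, 330 and 324 CPM in ES8 (0.41, standard error 0.05, adjusted p = 7.7e-04) and from 287, 324 and 323 CPM to 351, 385 and 383 CPM in Rh30 (0.28, standard error 0.07, adjusted p = 0.0073). INCENP, the scaffold of the complex, fell in Rh30 from 210, 196 and 198 CPM to 182, 152 and 147 CPM (-0.32, standard error 0.07, adjusted p = 0.0052). In ES8, INCENP stood at 141, 143 and 146 CPM with sgCTL and at 175, 158 and 157 CPM with sgDNAJC17 (0.16, adjusted p = 0.071). The INCENP effects differed between the lines by -0.46 (standard error 0.11, adjusted p = 0.011), a call kept in every fit that left out 1 of the 12 parental libraries. CDCA8, which encodes borealin, did not pass the test (0.12 and -0.08). It was called higher in ES8 without knockdown library A and lower in Rh30 after correction for GC content and length.

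With all libraries, spindle genes fell or were not called. TOP2A, the topoisomerase that untangles sister chromatids, went in ES8 from 355, 331 and 353 CPM to 176, 257 and 263 CPM (-0.60, standard error 0.13, adjusted p = 0.0071). Its lowest value was again in library A, without which the log2 fold change was -0.44. In Rh30, TOP2A stood at 468, 461 and 474 CPM and at 413, 396 and 445 CPM (-0.15, adjusted p = 0.088). It was called lower there with library totals, with the replicate block, after correction for GC content and length, and without knockdown library C. The lines differed by 0.48 (adjusted p = 0.028). KIF11, the kinesin of spindle bipolarity, fell in ES8 from 112, 106 and 111 CPM to 60.9, 88.8 and 88.3 CPM (-0.49, adjusted p = 0.015), a call lost without sgCTL library A or C. In Rh30, KIF11 had means of 101 CPM with sgCTL and 90.2 CPM with sgDNAJC17 and was not called with all libraries. It was called lower in Rh30 with DESeq2, library totals, the replicate block, the correction for GC content and length, and without knockdown library C. KIF2C, a microtubule depolymerase, fell in both lines (-0.22, adjusted p = 0.011 in ES8, and -0.21, adjusted p = 0.012 in Rh30), with calls lost in 3 and 2 of the 6 fits that left out 1 library. ASPM, a spindle pole protein, fell in Rh30 from 37.0, 33.1 and 35.1 CPM to 26.8, 21.1 and 25.1 CPM (-0.51, standard error 0.08, adjusted p = 7.1e-04), and had a close value in ES8 that did not pass the test (-0.45, standard error 0.17, adjusted p = 0.069). It was called lower in ES8 with DESeq2, with no filter, with the replicate block, after correction for GC content and length, and without knockdown library A or C. TPX2 and NUSAP1 did not pass the test in either line. Without ES8 knockdown library A, both were called higher in that line. In Rh30, TPX2 was called lower with library totals, with the replicate block and after correction for GC content and length, and NUSAP1 after that correction.

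Of the cytokinesis genes, PRC1, the microtubule bundler of the central spindle, fell in both lines. It went from 126, 129 and 127 CPM to 114, 117 and 117 CPM in ES8 (-0.16, adjusted p = 0.044) and from 130, 129 and 122 CPM to 106, 98.9 and 98.6 CPM in Rh30 (-0.31, standard error 0.06, adjusted p = 0.0018). The ES8 call was lost in 5 of 6 fits that left out 1 library, with DESeq2 or its size factors, with no filter and with the replicate block. The central spindle kinesins KIF20A (-0.25, adjusted p = 0.0047) and KIF23 (-0.20, adjusted p = 0.021) fell in Rh30 and were not called in ES8 (0.00 and -0.11), with differences between the lines that did not pass the test (adjusted p = 0.099 and 0.78). That of KIF20A did with DESeq2, with library totals, after correction for GC content and length and without Rh30 sgCTL library A. KIF20A stood at 156, 161 and 166 CPM in Rh30 sgCTL libraries and at 136, 130 and 135 CPM in the knockdown. KIF23 lost its call without any 1 of the 3 sgCTL libraries or knockdown library B. ANLN fell in ES8 from 125, 114 and 124 CPM to 76.7, 96.0 and 103 CPM (-0.42, standard error 0.10, adjusted p = 0.010), and stood at 320, 317 and 322 CPM and 298, 294 and 321 CPM in Rh30 (-0.06), a difference between the lines of 0.39 (adjusted p = 0.030). ECT2 and RACGAP1 did not pass the test in either line. RACGAP1 was called lower in Rh30 with library totals, with the replicate block and after correction for GC content and length. ECT2 stood at 38.1, 61.0 and 64.0 CPM in the ES8 knockdown against 69.9, 65.0 and 74.1 CPM with sgCTL, and was called lower there without knockdown library A (-0.18, adjusted p = 9.4e-04) or C, with DESeq2, with no filter, with the replicate block and after correcting for GC content and length.

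**Figure D3:**
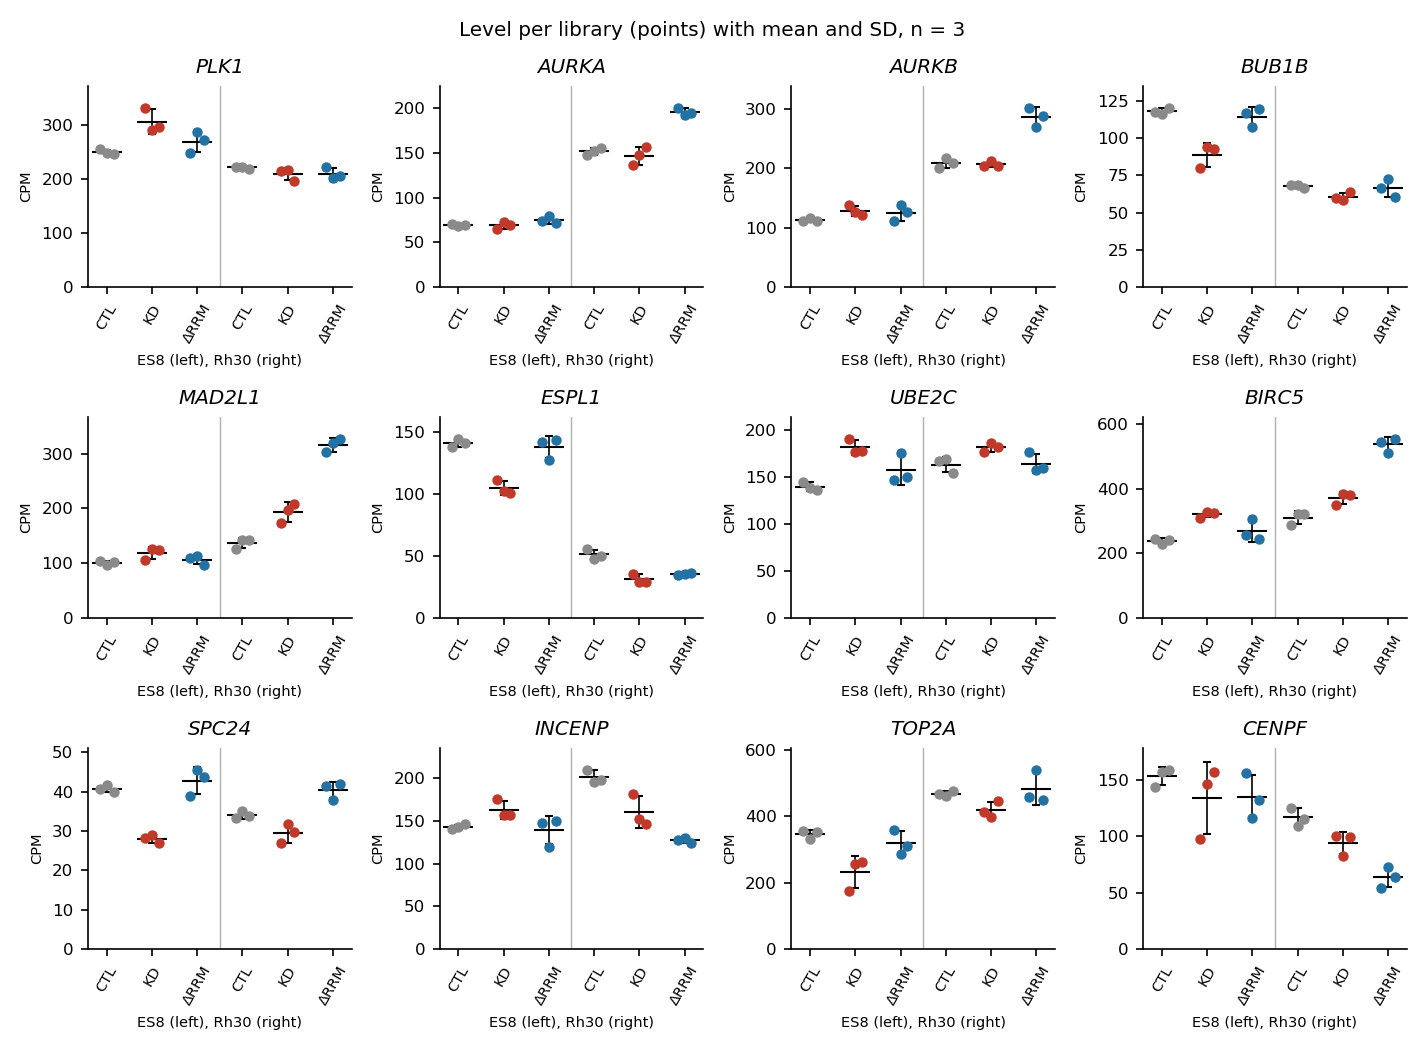
Level in CPM (y axis, from 0) of 12 genes in each library (points), with the mean and SD of the 3 libraries, for sgCTL (CTL), sgDNAJC17 (KD) and ΔRRM cells of ES8 (left of the line) and Rh30 (right). ESPL1 lies lower with sgDNAJC17 in both lines, and MAD2L1 and BIRC5 are highest in the Rh30 ΔRRM libraries.

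The line by knockdown interaction was tested over the 12 parental libraries. It called 5 of the 37 genes with a higher log2 fold change in Rh30 than in ES8 (5.23% of all genes tested). Another 2 had a lower one (4.55%). The log2 fold change was higher in Rh30 for BUB1B (0.31), SPC24 (0.39), SPC25 (0.40), TOP2A (0.48) and ANLN (0.39). Of these, BUB1B, SPC24, TOP2A and ANLN had a smaller fall in Rh30 than in ES8, not a stronger response. It was lower in Rh30 for PLK1 (-0.31) and INCENP (-0.46). When 1 library was left out, between 0 and 8 of the 37 genes were called higher (1.62% to 7.33% of all genes). The count was 0 without ES8 sgCTL library A or C, Rh30 sgCTL library A or C, or Rh30 knockdown library C.

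In the ΔRRM cells of ES8, none of the 37 genes was called against sgCTL in either direction, where 0.093% of all genes rose and 0.0814% fell. At an unadjusted p under 0.05 there were 6 of the 37, beside 2308 of all 17199 genes tested. DESeq2 called 0 of the 37, beside 0.173% of all genes up and 0.204% down. Log2 fold changes ran from -0.43 (CENPE) to 0.19 (CENPA). Without ΔRRM library A, 1 gene rose and 4 fell, beside 1.305% and 1.316% of all genes. Against the knockdown, 6 genes were higher in ΔRRM cells (7.35% of all genes) and 0 lower (7.36%). These 6 were BUB1 (0.32), BUB1B (0.39), ESPL1 (0.41), SPC24 (0.63), KIF2C (0.30) and TOP2A (0.48), each of which fell in the knockdown against sgCTL. The same knockdown libraries enter both comparisons. BUB1B, for one, stood at 117, 107 and 119 CPM in ΔRRM cells, a range that overlapped that of sgCTL (116 to 120 CPM), and ESPL1 at 142, 127 and 144 CPM against 138, 145 and 141 CPM with sgCTL. SPC24 was the 1 call that held whichever library was left out (adjusted p = 0.0027 with all). The number called higher was 1 without ΔRRM library C (2.62% of all genes) and 2 without knockdown library B (2.60%). It was 3 without knockdown library C (3.30%) or ΔRRM library B (5.51%). BIRC5, UBE2C and PLK1, which rose in the ES8 knockdown, were lower in ΔRRM cells by values that did not pass the test (-0.24, -0.18 and -0.17, adjusted p from 0.11 to 0.24).

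In the ΔRRM cells of Rh30, 19 of the 37 genes rose against sgCTL (33.8% of all genes tested) and 11 fell (35%), so that 51.4% rose and 29.7% fell. Whether the ΔRRM effects differed between the lines was not tested. MAD2L1 had the largest change, from 126, 142 and 142 CPM with sgCTL to 303, 319 and 327 CPM (log2 fold change 1.25, standard error 0.06, adjusted p = 6.9e-25), and was the 1 gene changed by 2-fold or more. The sgCTL, knockdown and ΔRRM libraries of MAD2L1 formed 3 groups that did not overlap. The B cyclins and their kinase rose as well. CCNB2 stood at 268, 260 and 277 CPM against 129, 148 and 148 CPM (0.96). CCNB1 stood at 770, 758 and 795 CPM against 396, 434 and 444 CPM (0.91). CDK1 stood at 204, 228 and 209 CPM against 113, 123 and 122 CPM (0.88). These 3 were not called in the Rh30 knockdown with all libraries, but CDK1 and CCNB1 were called higher there with the replicate block and without knockdown library A. Both Aurora kinases rose, AURKA to 201, 192 and 194 CPM (0.40, adjusted p = 3.4e-08) and AURKB to 302, 269 and 287 CPM (0.49, adjusted p = 4.0e-10), while PLK1 stood at 222, 203 and 206 CPM (-0.04, adjusted p = 0.60). PLK1 was called lower with library totals and higher after correction for GC content and length, with and without the replicate block. TTK (0.86), SPC25 (0.86), CENPA (0.83), BIRC5 (0.83), NUF2 (0.73) and PTTG1 (0.64) also rose. CDC20 and UBE2C, which act on the anaphase promoting complex, did not pass the test (0.13 and 0.05). CDC20 was called higher with DESeq2 and without ΔRRM library B. UBE2C was called lower with library totals and after correction for GC content and length.

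CENPF fell most in these cells, to 54.5, 72.8 and 64.2 CPM (-0.83, standard error 0.07, adjusted p = 4.6e-16), followed by INCENP at 128, 130 and 125 CPM (-0.62) and ESPL1 at 34.6, 35.5 and 36.3 CPM (-0.50). KNL1 (-0.47), CENPE (-0.47), ASPM (-0.35), PRC1 (-0.35), KIF2C (-0.25), TPX2 (-0.17), CDCA8 (-0.16) and KIF11 (-0.16) fell as well. The kinetochore genes thus split, with 5 that rose and 3 that fell, while 5 of 7 kinases rose and 4 of 6 spindle genes fell. The ESPL1 call was lost after the correction for GC content and length (0.06, adjusted p = 0.34), as was that of NDC80. CDCA8, KIF11 and TPX2 lost theirs when particular libraries were left out (sgCTL C for CDCA8, sgCTL A or C or ΔRRM A or C for KIF11, sgCTL B or ΔRRM C for TPX2). Scaling by library totals alone moved the median over all genes from -0.01 to -0.25 and gave 15 genes up and 17 down (46.9% of calls up, against 63.3%), with BUB1, SPC24 and NUSAP1 no longer called and KIF23 changing sign. TMM factors were 0.819 to 0.853 in these libraries and 0.917 to 0.974 in the other Rh30 libraries, and all 6 muscle lineage markers fell (median -0.57) while 8 of 11 tested epithelial markers rose and 0 fell. The part of either marker list in these values was not tested.

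Against the Rh30 knockdown, which shares the sgDNAJC17 guide, 22 genes were higher in ΔRRM cells (29.4% of all genes) and 3 lower (30.5%). CCNB2 (0.97), CENPA (0.81), TTK (0.76), CCNB1 (0.74) and MAD2L1 (0.72) differed most upward, and CENPF (-0.55), KNL1 (-0.38) and INCENP (-0.32) were the 3 lower genes. ESPL1, at 35.8, 28.9 and 28.8 CPM in the knockdown, was 0.19 higher in ΔRRM cells (adjusted p = 0.048), a call lost in 5 of 6 fits that left out 1 library. ASPM (0.15) and PRC1 (-0.05), which also fell in the Rh30 knockdown, did not pass the test between these groups. With totals alone, 19 genes were higher and 9 lower (21.0% and 40.7% of all genes). Leaving out a library kept 19 to 23 higher and 3 to 4 lower (26.2% to 28.8% and 27.2% to 29.9% of all genes).

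**Figure D4:**
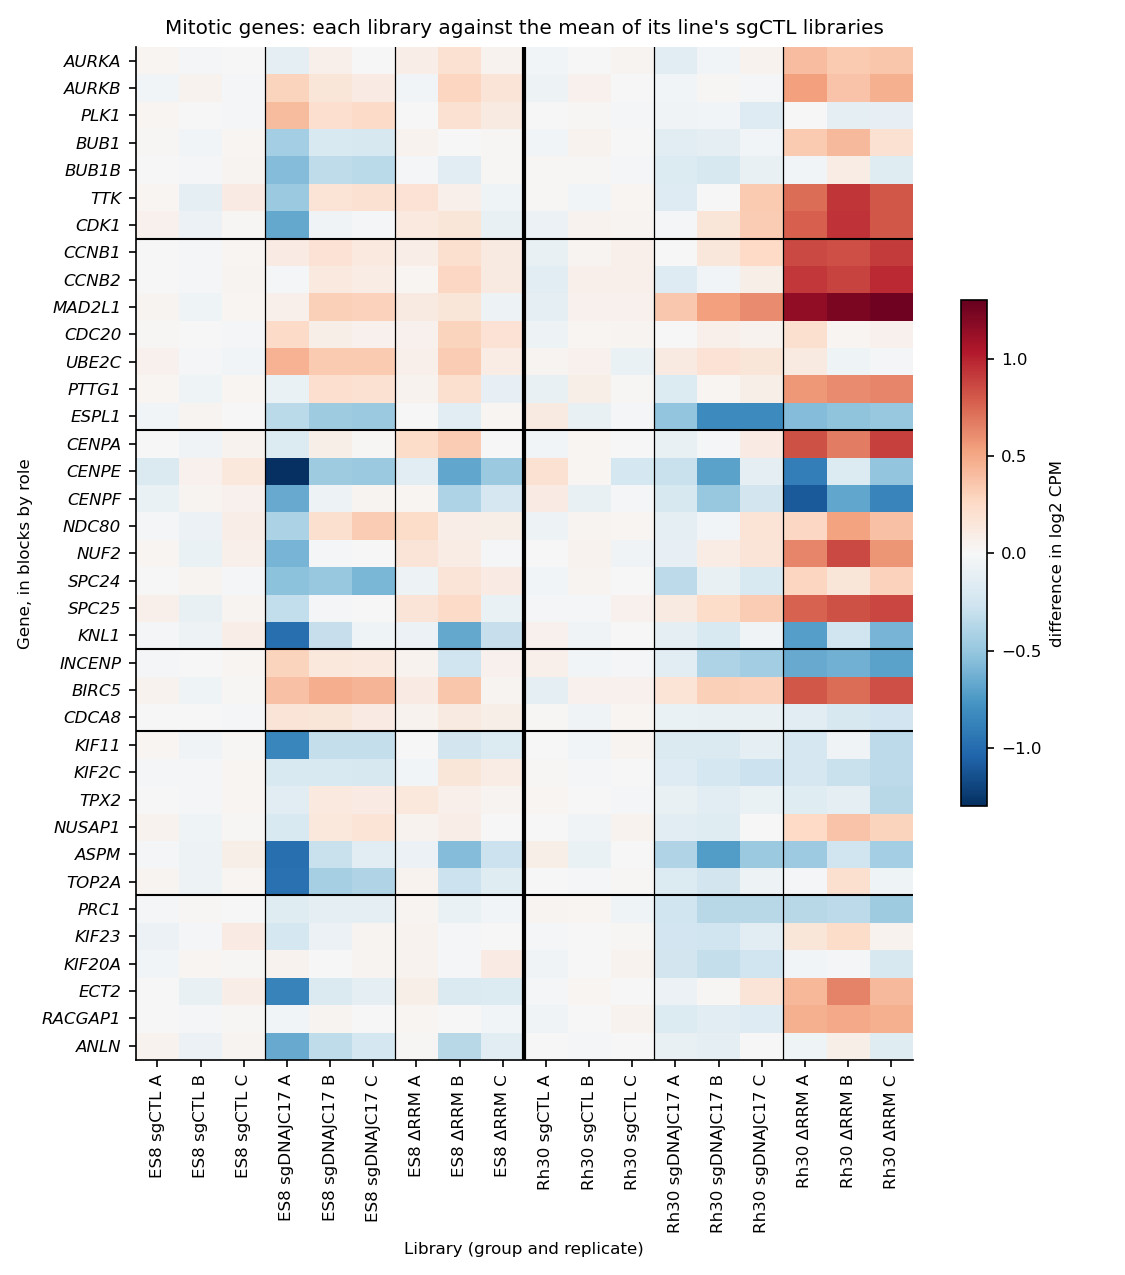
Difference in log2 CPM (colour, red higher and blue lower) between each of the 18 libraries (columns) and the mean of the sgCTL libraries of the same line, for the 37 genes (rows, in blocks by role). Library A of the ES8 knockdown is the bluest of its group, with CDK1, CENPE, KNL1, KIF11, ASPM, TOP2A and ECT2 low, and the Rh30 ΔRRM libraries hold the highest values, led by MAD2L1.

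The genes' response ran with the length of their exons. Over the 37 genes, Spearman's rank correlation between exonic length and log2 fold change with sgDNAJC17 was -0.56 in ES8 and -0.55 in Rh30, and in ΔRRM cells against sgCTL -0.83 in ES8 and -0.49 in Rh30, where over all genes tested it was -0.21, -0.23, -0.24 and -0.31. These are descriptions over genes of the same libraries, and the 2 comparisons of a line share its sgCTL libraries. Of the 12 shortest genes (1286 to 2928 bases), 9 rose and 1 fell in the Rh30 ΔRRM cells, and of the 12 longest (5499 to 11690 bases), 4 rose and 6 fell. In the ES8 knockdown, 1 of the shortest fell (SPC24) and 1 rose, and 6 of the longest fell and 0 rose. The 5 genes over 8000 bases, CENPF, ASPM, KNL1, CENPE and ESPL1, had log2 fold changes under 0 in all 4 of these comparisons. After each library was corrected for trends with GC content and length, the rank correlations over the 37 genes were -0.43, -0.41, -0.56 and -0.33 in the same order. CENPF, CENPE, KNL1 and ASPM stayed under 0 in the 4 comparisons after the correction, with CENPE at -0.62 (ES8) and -0.38 (Rh30) and ASPM at -0.29 and -0.50 in the knockdowns, while ESPL1 stood at 0.00 in the ES8 and 0.06 in the Rh30 ΔRRM cells.

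**Figure D5:**
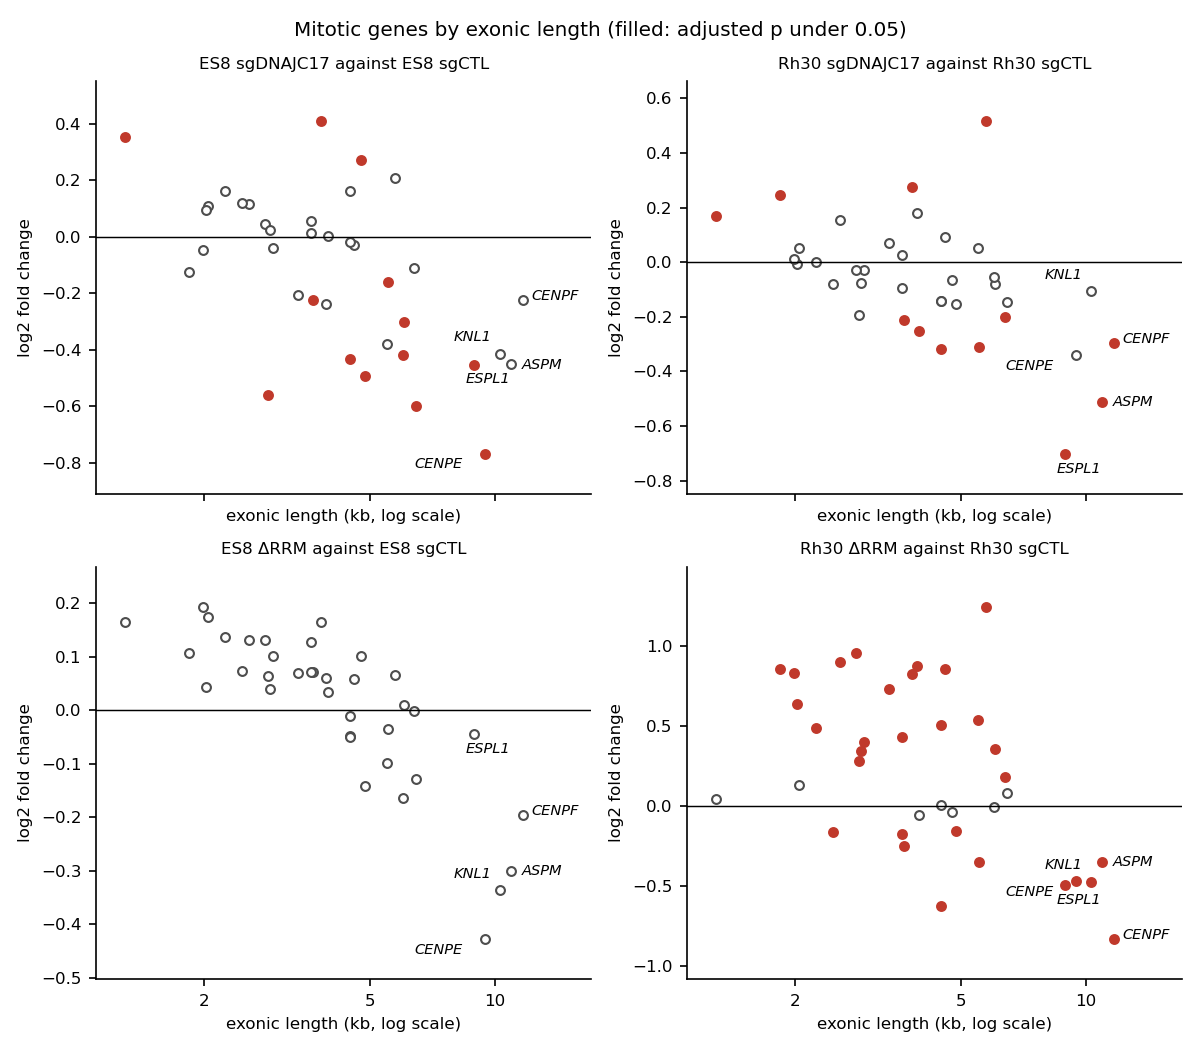
log2 fold change (y axis) of the 37 genes against exonic length in kb (x axis, log scale) in the 4 comparisons with sgCTL, with genes over 8 kb named and filled points at an adjusted p under 0.05. The 5 longest genes lie below 0 in every panel, and in the ES8 ΔRRM panel, where nothing was called, the points slope from 0.19 at the short end to -0.43.

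GC content ran with the difference between the lines. The genes' median GC content was 43.9%, against 48.7% over all genes tested. Spearman's rank correlation between GC content and the interaction (Rh30 minus ES8) was -0.74 over the 37 genes and -0.30 over all genes. For the knockdown of ES8 it was 0.52 over the 37 genes and 0.11 over all genes. For that of Rh30 it was -0.12 and -0.35. Library A of the ES8 knockdown, which had a trend with GC content, enters the ES8 value and the interaction. The median interaction was 0.38 over the 12 genes with the lowest GC content (35.4% to 39.9%) and -0.12 over the 12 with the highest (48.3% to 58.8%). After the correction, BUB1B, SPC24, TOP2A, ANLN and INCENP kept their calls in the interaction, and PLK1 and SPC25 lost theirs.

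BUB1B, KNL1 and NUSAP1 lie near DNAJC17 on chromosome 15, with their 5' ends 646, 213 and 525 kb from that of DNAJC17 (GRCh38). KNL1 was not called in either knockdown, at 33.5, 32.3 and 36.0 CPM with sgCTL and 17.2, 27.6 and 32.7 CPM with sgDNAJC17 in ES8, and neither was NUSAP1. KNL1 was called lower in ES8 with DESeq2, with no filter, with the replicate block, after correction for GC content and length, and without knockdown library A or C, and NUSAP1 was called higher in ES8 without knockdown library A and lower in Rh30 after that correction.

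Other genes of the same pathways were taken from lists by role, and their counts stand beside 13.6% of all genes up and 13.8% down in the ES8 knockdown and 16.1% and 16.2% in that of Rh30. Of 31 further kinetochore genes, 3 rose and 5 fell in the ES8 knockdown (median log2 fold change -0.06) and 4 rose and 3 fell in Rh30 (0.06). These are 9.68% and 16.1% of the list in ES8 and 12.9% and 9.68% in Rh30, near or below the shares over all genes. HJURP, the chaperone of CENPA (0.46, adjusted p = 9.1e-04), and MIS12 (0.40) rose most in ES8, where the checkpoint protein KNTC1 (-0.68) and CENPI (-0.60) fell most. MIS12 (0.40) and CENPL (0.34) rose most in Rh30, where MAD1L1, the partner of MAD2 (-0.43), and DSN1 (-0.25) fell most. HJURP stood at 0.01 in Rh30, and its effects differed between the lines by -0.43 (adjusted p = 0.0067).

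Of 17 subunits and partners of the anaphase promoting complex, 2 rose and 8 fell in ES8 (median -0.37), and 2 rose and 2 fell in Rh30 (-0.02). The 8 that fell in ES8 are 47.1% of the list, and the Rh30 counts, 11.8% each, lie below the shares over all genes. The cullin subunit ANAPC2 (-0.52, adjusted p = 0.0021) and the scaffold subunit ANAPC7 (-0.47) fell most in ES8, where UBE2S, which extends ubiquitin chains after UBE2C (0.35), and ANAPC11 (0.30) rose. In Rh30, ANAPC13 (0.37) and CDC26 (0.32) rose, and the activator FZR1 (-0.35) and ANAPC2 (-0.30) fell. The interaction was called for 7 of the 17, all with a higher log2 fold change in Rh30 than in ES8 (5.23% of all genes).

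Of 29 genes of mitotic entry and G2-M transcription, 2 rose and 7 fell in ES8 and 2 rose and 11 fell in Rh30. PKMYT1, an inhibitory kinase of CDK1 (-0.71), and RBL2, a DREAM subunit (-0.64), fell most in ES8, where CDC25C (0.30) and WEE1 (0.24) rose. E2F2 (-0.65) and E2F1 (-0.59, adjusted p = 5.8e-05) fell most in Rh30, where ARPP19 (0.24) and CHEK1 (0.20) rose. Of 30 further spindle, centrosome and condensin genes, 0 rose and 11 fell in ES8 (median -0.29) and 0 rose and 14 fell in Rh30 (median -0.15), shares of 36.7% and 46.7% beside the backgrounds of 13.8% and 16.2%. The kinesin KIF15 (-0.79) and the cytokinesis kinase CIT (-0.68) fell most in ES8, and MKI67 (-0.58) and the condensin subunit NCAPD3 (-0.52) in Rh30. In Rh30 ΔRRM cells against sgCTL, 33.8% of all genes rose and 35% fell. There, 24 of the 31 kinetochore genes rose and 3 fell (77.4% and 9.68%, median 0.46). Of the 30 spindle, centrosome and condensin genes, 7 rose and 17 fell (23.3% and 56.7%, median -0.23).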

How the data were processed

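RNA-seq of 18 libraries was analysed. The authors deposited 1 table of raw counts per library, with no normalization. According to the submitters' processing notes, these were made with Trimmomatic 0.36, STAR 2.5.2b and featureCounts of Subread 1.5.2. The strand setting is not given in the sources used here, and the library kit does not mark strand, so reads of overlapping antisense genes cannot be told apart. The notes name GRCh38 and the paper's methods an older build, but 85.3% of 18964 gene starts in the tables lay at most 1 kb from the GRCh38.p14 position (4.05% of 19589 for GRCh37). Of the 57500 Ensembl identifiers, 55082 were given a symbol from a reference annotation.

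The test was that of edgeR 4.0.16, run in R 4.3.3 (TMM, filterByExpr, quasi-likelihood test, Benjamini-Hochberg adjustment over all genes tested), at an adjusted p under 0.05. Each comparison was fitted on its own groups, and the interaction on the 12 parental libraries. On data simulated for the ES8 knockdown, with 16924 genes, 199 of 200 changed genes were recovered, with 14 false calls. These genes were changed 2-fold and drawn from those with higher counts, and no trend with GC content was simulated. The 199 therefore does not measure the power for the smaller changes reported here. Alternatives were a fold change of at least 2, DESeq2 1.42.0, its size factors in edgeR, library totals without TMM, no filter, the replicate letter as a block, a lowess correction (span 0.3) for GC content and length, and each library left out. Same-lettered libraries deviated together in the Rh30 knockdown (letter A 0.646, letter B 0.378, letter C 0.327, as correlations over 4389 genes of at least 50 CPM), but not over all genes (0.09, 0.02 and 0.03). The limit of 50 CPM was chosen after the values over all genes had been seen, and the pairing rests on it. In each other comparison at least 1 letter had a correlation under 0.1. The libraries come from cells plated in triplicate, so p-values measure the spread between these platings, which may be technical. No pair of replicates agreed within sampling noise (chi-square per degree of freedom at least 2.63).

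The 37 genes and the other lists were chosen with earlier results of these data known, and the epithelial list after epithelial genes had been seen to rise. All 37 genes are reported. Values per library are given for those with the largest change of their role group or a call that differed between lines or arms, and for the Aurora kinases and PLK1, and per other list and knockdown the 2 genes called with the largest rise and the 2 with the largest fall are named. Promoter sequences came from RefSeq (GRCh38.p14). Python 3.11.15, pandas 2.3.3 and matplotlib 3.10.9 were also used.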

Additional observations from a re-analysis of the deposited data

Results flagged for a closer look

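The effect of the knockdown differed between Rh30 and ES8, by the interaction test, for 7 of the 37 genes. The difference, Rh30 minus ES8 on the log2 scale, was -0.31 for PLK1, 0.31 for BUB1B, 0.39 for SPC24, 0.40 for SPC25, -0.46 for INCENP, 0.48 for TOP2A and 0.39 for ANLN. INCENP kept its call in all 12 fits that left out 1 library, and the other 6 genes in 3 to 6 of the 12. SPC24 and SPC25 bind each other in the NDC80 complex. With all libraries, SPC24 fell in ES8 and was not called in Rh30, and SPC25 rose in Rh30 and was not called in ES8. SPC24 was called lower in Rh30 too with library totals, with the replicate block and after correction for GC content and length, and SPC25 lost its Rh30 call with library totals and after that correction, under which, without the block, it was called lower in ES8.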

How the results depend on the processing

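Counts of called genes are given as up and down. At a fold change of at least 2, the knockdowns, the interaction and ΔRRM cells against the knockdown had 0 and 0 in each line. Rh30 ΔRRM against sgCTL had 1 and 0, and ES8 sgCTL against Rh30 sgCTL 1 and 5. Over all genes, these counts were 285 and 49 of 17143 in the ES8 knockdown and 118 and 121 of 15391 in that of Rh30. They were 104 and 135 of 18899 in the interaction. Against the knockdown they were 82 and 254 of 17099 in ES8 ΔRRM and 677 and 515 of 15309 in Rh30 ΔRRM. Rh30 ΔRRM against sgCTL had 1028 and 512 of 15442, and the lines 5148 and 3981 of 17925. After correcting for GC content and length, 5 genes were up in the ES8 knockdown (5 also with the replicate block), 2 were up and 20 down in the Rh30 knockdown (2 and 24 with the replicate block), 14 up and 2 down in ES8 ΔRRM against knockdown (11 and 1 with the block), 6 down in Rh30 ΔRRM against knockdown, and 8 down in the interaction with the block. With the replicate block alone, 15 were down in the Rh30 knockdown (23.5%) and 3 up in ES8 ΔRRM against knockdown (3.61%). With library totals, counts were 2 and 15 in the Rh30 knockdown (11.1% and 20.8%). In Rh30 ΔRRM, 17 were down against sgCTL (46.8%) and 9 against knockdown (40.7%). The interaction had 1 and 3 (3.39% and 5.69%), of which the 1 up moved past the limit of 1.5 times. DESeq2 gave 4 down (3.37%) and its size factors 3 up (4.66%) in the interaction, and no filter gave 3 down in ES8 ΔRRM against sgCTL (1.01%). The cause of these shifts was not tested.

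Leaving out 1 library gave 2 to 13 up and 4 to 13 down in the ES8 knockdown, 2 to 7 and 5 to 12 in the Rh30 knockdown, 0 to 1 and 0 to 4 in ES8 ΔRRM against sgCTL, 19 to 20 and 9 to 11 in Rh30 ΔRRM against sgCTL, 1 to 6 and 0 to 1 in ES8 ΔRRM against knockdown, 19 to 23 and 3 to 4 in Rh30 ΔRRM against knockdown, 12 to 13 and 22 to 22 between the lines, and 0 to 8 and 1 to 3 in the interaction. Against knockdown the shares were 2.60% to 9.88% and 3.48% to 9.30% in ES8, and 26.2% to 28.8% and 27.2% to 29.9% in Rh30. Between the lines they were 44.3% to 45.5% and 40.5% to 41.1%, and in the interaction 1.62% to 7.33% and 2.43% to 5.96%. Of 962 single-gene values in the knockdowns, 815 kept their side of the threshold, 47 lost and 97 gained a call, and 61 of the 815 changed sign without a call on either side. TTK in ES8 took the opposite sign with a call without knockdown library A (0.16), and CENPA (-0.14) and NDC80 (-0.12) did so in Rh30 under that correction combined with the replicate block. No gene called with all libraries changed sign in a knockdown. With 3 libraries a group and changes of mostly under 0.5 on the log2 scale, a gene that was not called is not shown to be unchanged.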

Other observations

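Genes of DNA replication and cohesin were counted in the same fits. Of 43 replication genes, 2 rose and 14 fell in the ES8 knockdown (median log2 fold change -0.17) and 8 rose and 7 fell in Rh30 (-0.07). These are 4.65% and 32.6% of the list in ES8, beside 13.6% and 13.8% of all genes, and 18.6% and 16.3% in Rh30, close to the 16.1% and 16.2% of all genes. POLD1, the catalytic subunit of DNA polymerase delta, fell in both lines (-0.64, adjusted p = 0.0011, and -0.69, adjusted p = 5.1e-05), and RPA2, a subunit of the single-strand binding protein, rose in both (0.31 and 0.35). The helicase factor CDC45 (-0.58) fell and the licensing factor CDT1 (0.30) rose in ES8, and LIG1 (-0.51) fell and ORC6 (0.40) rose in Rh30. In Rh30 ΔRRM cells against sgCTL, 24 of the 43 rose and 14 fell (median 0.34), beside 33.8% and 35% of all genes.

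Of 15 tested genes of cohesin in ES8, 2 rose and 5 fell, and of 16 in Rh30, 1 rose and 5 fell. The shares that fell were 33.3% and 31.2%, beside the 13.8% and 16.2% of all genes, and those that rose 13.3% and 6.25%, beside 13.6% and 16.1%. CDCA5, which encodes sororin, rose in both lines (0.48 and 0.25), and PDS5B, a cohesin regulator, fell in both (-0.46 and -0.41), as did the core subunit SMC3 in ES8 (-0.47). MAU2, a subunit of the cohesin loader, rose in ES8 (0.24, adjusted p = 0.028) and fell in Rh30 (-0.33, adjusted p = 0.0099), and the interaction was -0.55 (adjusted p = 0.0084).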
